A study of Mus musculus with 354 samples.

Results

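The S100 genes encode small calcium-binding proteins, and the 8 members described here, *S100a1*, *S100a4*, *S100a6*, *S100a10*, *S100a11*, *S100a13*, *S100a16* and *S100b*, were taken by name from the 55367 genes counted in each cell. They were chosen by earlier results of the same cells, namely the plate levels of the S100 genes in both genotypes, which had shown higher *S100a6* in cells with activated ERBB2 beside the supporting cell (SC) markers *S100a1* and *S100b*. The values that compare the genotypes for these members are therefore given as a description, with their errors, and nothing is read from a test of them. The cells came from the organ of Corti of mouse pups collected at P3. All pups carried *Fgfr3-iCre*, a Cre driven by the *Fgfr3* promoter, together with *ROSA-floxed-rtTA/GFP*, and Control littermates carried nothing further. CA-ERBB2 pups also had *TetON-CAERBB2*, which expresses a mutated, constitutively active ERBB2 receptor when doxycycline is given. The treatment recorded for the series was tamoxifen (75 mg/kg) at P0 and P1 and doxycycline (100 mg/kg) at P2, although only the CA-ERBB2 labels repeat it for each cell. Single GFP+ cells were sorted, 177 of each genotype, as 59 cells on each of 3 plates per genotype. The plate number in each label was taken as the replicate, and cells of a plate are not independent of each other. By the methods of the study, several pups of a genotype were pooled for each plate, so a plate holds cells of more than 1 pup, and the cells came from separate FACS sorts.

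S100 proteins carry the EF-hand, a loop that binds calcium, and most of them act as dimers that grip a target protein once calcium is bound. S100A10 is the exception in that it takes its target-binding shape without calcium, in a complex with annexin A2. In the cochlea, S100A1 and S100B are used as markers of SCs, with *S100a1* a marker of Deiters cells and *S100b* a marker of pillar cells. S100A6, or calcyclin, is known from proliferating and stress-exposed cells and binds annexins and the calcyclin-binding protein. S100A13 takes part in the release of FGF1 and interleukin 1 alpha from cells, S100A4 binds nonmuscle myosin, and S100A11 binds annexin A1.

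Most of the family is encoded in a cluster of genes. Positions were taken from Gencode M21 on GRCm38, the build of the deposited counts, for 19 counted genes with a name in S100. These include *S100pbp*, for an S100P-binding protein, and the pseudogene *S100a11-ps*, but not *S100a7l2*, which had no position there. By its methods, the study counted reads with a later Gencode release, so positions, exon lengths and overlaps may differ from those behind the counts. Of the 19, 14 lie on mouse chromosome 3, among them 7 of the 8 members, and *S100b* lies on chromosome 10. Along chromosome 3, 12 of these 14 genes, from *S100a1* to *S100a9*, fall within 184688 bases, and *S100a11* and *S100a10* follow after 2824766 bases. *S100a6* occupies chr3:90612882-90624181 on the plus strand. *S100a1* (chr3:90511034-90514392, minus strand) and *S100a13* (chr3:90514435-90524581, plus strand) are transcribed away from each other from starts that are 42 bases apart. *S100a4* (chr3:90603771-90606045) shares 302 of its 584 exon bases with *Gm42674* on the same strand, and reads in those bases cannot be assigned to either gene.

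The promoter of *S100a6* is shown because the gene differed most between the genotypes among the members with a high level, the stretch between *S100a1* and *S100a13* because both genes start at its edges by Gencode, and the promoter of *S100a11* because it held the most motif matches. The sequences are from RefSeq on GRCm38.p6, whose table held 7 of the 8 members. Those of *S100a6* and *S100a11* end before their RefSeq starts, whereas the edges of the stretch are the Gencode starts. By RefSeq, *S100a1* starts 62 bases further from *S100a13* than by Gencode, so it does not start at the edge of the stretch. Each is written 5′ to 3′ on the plus strand, and capitals mark matches to the motifs TGANTCA (AP-1), CACGTG (E-box) or CCGGAAG (ETS), searched on both strands.
*S100a6*, 250 bases before its start, chr3:90612644-90612893: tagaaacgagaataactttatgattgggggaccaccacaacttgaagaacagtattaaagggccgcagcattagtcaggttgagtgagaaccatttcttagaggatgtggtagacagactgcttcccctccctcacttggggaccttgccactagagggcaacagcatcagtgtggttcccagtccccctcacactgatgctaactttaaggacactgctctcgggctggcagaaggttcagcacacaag
*S100a1* to *S100a13*, 42 bases between their starts, chr3:90514393-90514434: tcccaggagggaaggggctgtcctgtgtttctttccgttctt
*S100a11*, 250 bases before its start, chr3:93520246-93520495: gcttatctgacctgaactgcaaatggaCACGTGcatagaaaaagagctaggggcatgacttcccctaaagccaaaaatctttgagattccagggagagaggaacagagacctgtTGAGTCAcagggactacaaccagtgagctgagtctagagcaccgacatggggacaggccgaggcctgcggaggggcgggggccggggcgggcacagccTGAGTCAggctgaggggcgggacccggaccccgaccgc

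In windows of 300 bases that add 50 bases after the start, the AP-1 motif was found in 2 of the 7 members (*S100a11* and *S100a16*) and in 7.81% of all 32851 promoters of the table. The E-box was found in 2 members, *S100a11* and *S100a6* (7.15% of all promoters), and the ETS motif in 0 members (8.86% of all promoters). The E-box of *S100a6* begins at base 15 after its start, outside the sequence shown. A member counted if any of its windows held the motif, and *S100a16* had a window for each of its RefSeq starts. The share over all promoters is of single windows, so it is not the same measure. These matches describe letters, and binding was not measured.

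The total count of a cell ranged from 1443 to 5178221 with a median of 2866362, and a plate held between 108357282 and 188636940 counts. Plate 1 of either genotype was richer than the others, with a median of 10198 genes per CA-ERBB2 cell and 8679 per Control cell, against 1742 to 2954 on the other 4 plates. Totals under 100000 counts occurred in 35 cells, 23 of them on Control plate 2 and 10 on Control plate 3, which lowers detection on these plates. The wells A12 to D12 had plate medians from 13146 to 17397 genes, above the median of the other wells on every plate, although single wells overlapped on CA-ERBB2 plates 2 and 3 and on Control plate 2. The markers went only in part with the label of SCs: *Fgfr3* was detected in 30.8% of all cells, *Sox2* in 26.8% and *Epcam*, an epithelial gene, in 36.2%, whereas *Col1a2*, a collagen gene of mesenchyme, was detected in 70.6%. A plate value of an S100 gene therefore depends on both the share of cells of each type and the RNA per cell, which cannot be told apart in plate sums. *Erbb2* was detected in 82 CA-ERBB2 and 51 Control cells. Its level was 106, 46.0 and 120 normalised CPM (counts scaled to 1000000 per plate) on the CA-ERBB2 plates and 19.8, 3.24 and 12.4 on the Control plates, a log2 fold change of 2.94 (SE 0.76), with an edgeR adjusted p of 0.774.

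In the summed counts of a plate, *S100a6* was high in CA-ERBB2 and low in Control. Over single cells its median was 5.12, 0 and 0 CPM on CA-ERBB2 plates 1 to 3 and 0 on each Control plate. The normalised level of the sum was 616, 1279 and 1188 CPM on CA-ERBB2 plates 1 to 3, and 63.4, 111 and 66.8 CPM on Control plates 1 to 3. The lowest CA-ERBB2 plate thus lay above the highest Control plate. The means were 1028 ± 359 and 80.4 ± 26.6 CPM (SD, n = 3 plates each), and the log2 fold change was 3.68 (SE 0.56), which is 12.8-fold.

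The markers *S100a1* and *S100b* did not follow *S100a6*. The level of *S100a1* was 610, 1045 and 1021 CPM on the CA-ERBB2 plates and 400, 924 and 2148 CPM on the Control plates, and the genotypes overlapped. Its log2 fold change was -0.38 (SE 0.63), and it turned to 0.45 without Control plate 3, the plate with the highest value. The level of *S100b* was 120, 186 and 270 CPM on the CA-ERBB2 plates and 205, 142 and 276 CPM on the Control plates. The log2 fold change of *S100b* was -0.11 (SE 0.50), and the sign turned in 3 of 15 alternatives.

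*S100a13*, the neighbour of *S100a1*, was the other member with every CA-ERBB2 plate above every Control plate. It measured 175, 418 and 511 CPM on the CA-ERBB2 plates and 55.4, 151 and 99.6 CPM on the Control plates, a log2 fold change of 1.85 (SE 0.59). The gap between the genotypes was small, with the lowest CA-ERBB2 plate at 175 CPM and the highest Control plate at 151 CPM. *S100a16*, a widely expressed member, measured 204, 182 and 207 CPM against 71.2, 207 and 119 CPM, and Control plate 2 reached the level of the CA-ERBB2 plates (log2 fold change 0.57, SE 0.51).

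The annexin-binding members *S100a10* and *S100a11* were high on CA-ERBB2 plates 2 and 3 only. *S100a10* measured 119, 714 and 843 CPM on the CA-ERBB2 plates and 104, 193 and 298 CPM on the Control plates (log2 fold change 1.49, SE 0.71). *S100a11* measured 112, 507 and 582 CPM on the CA-ERBB2 plates and 117, 128 and 200 CPM on the Control plates (log2 fold change 1.43, SE 0.63). For both genes CA-ERBB2 plate 1 lay within or below the Control plates, whereas *S100a6* on that plate was already above them. *S100a4* was low throughout, at 0.962, 27.2 and 19.2 CPM against 1.61, 1.98 and 0.0579 CPM. Its log2 fold change of 3.69 (SE 1.52) was as large as that of *S100a6* but rested on 4945 counts in 32 CA-ERBB2 cells and 627 counts in 11 Control cells, and CA-ERBB2 plate 1 lay below Control plates 1 and 2.

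**Figure D1:**
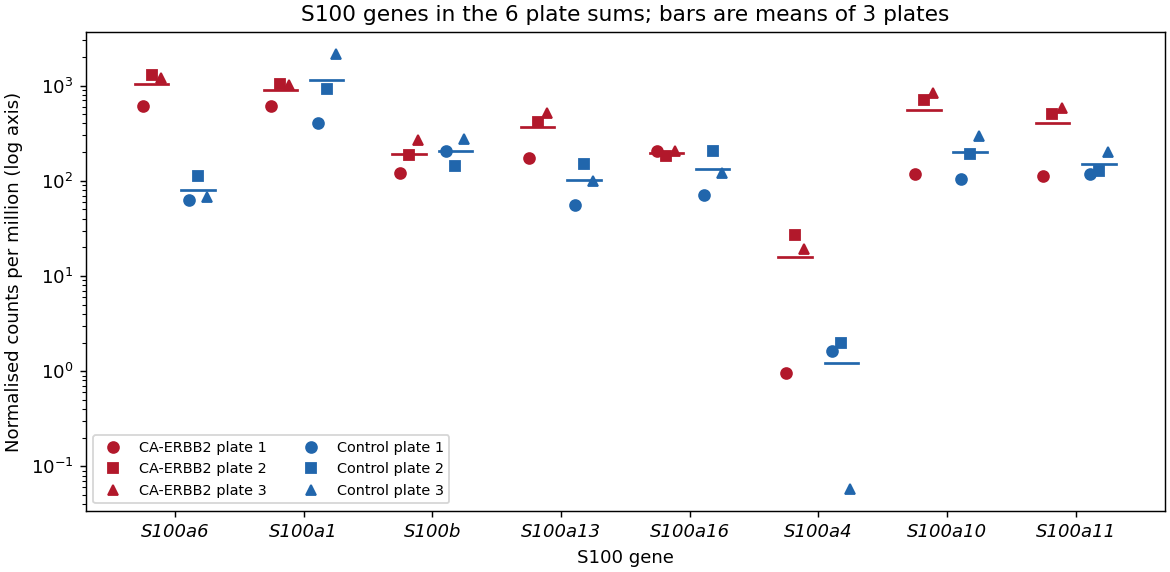
Normalised CPM (log axis) of the 8 S100 genes in the sum of the cells of each plate, with CA-ERBB2 plates in red, Control plates in blue and a bar at the mean of 3 plates. *S100a6* and *S100a13* are the members whose 3 CA-ERBB2 plates all lie above the 3 Control plates.

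By edgeR's quasi-likelihood test over all 21416 genes tested, with Benjamini-Hochberg adjustment, 1 gene (*Serpinb2*) was higher in CA-ERBB2 (0.00467% of genes) and 0 genes were lower, with 594 (2.77%) and 512 (2.39%) genes at an unadjusted p under 0.05. Of the 8 members 0 were called, 4 were higher and 0 lower at an unadjusted p under 0.05, and DESeq2 called 1 as higher, *S100a6* (0.685% of the 18827 genes it tested were). Of the members, 2 had every CA-ERBB2 plate above every Control plate, and 4.2% of all genes tested did, while 0 members and 4.88% of all genes had every CA-ERBB2 plate below. A log2 fold change above 1 was found for 5 of 8 members and for 17.7% of all genes. The median log2 fold change was 1.46 over the members and -0.02 over all genes. As the members were picked with this contrast known, these counts do not bear on the family. Scaling to library sizes alone moved the median of all genes by -0.25, and *S100a6* stood at 3.29 under that scaling.

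Compared per length of exons, the order of the members changed between the genotypes. In Control plates *S100a1* was the most abundant member at 1744 ± 1160 CPM per kilobase (SD, n = 3), followed by *S100a11* (318 ± 56.5), *S100a10* (176 ± 64.2), *S100a13* (156 ± 68.3) and *S100b* (155 ± 43.5). *S100a6* was the lowest but *S100a4* there, at 65.7 ± 21.3 CPM per kilobase, next to *S100a16* (90.0 ± 44.6). In CA-ERBB2 plates *S100a1* was first at 1116 ± 92.5 CPM per kilobase, and *S100a6* came next at 641 ± 77.0. *S100a11* at 616 ± 282 did not differ from *S100a6* beyond its spread, nor did *S100a10*, *S100a13* and *S100b* differ from each other in Control plates. The exons of *S100a6* were taken as the union of all its transcripts (1367 bases), so its level per length is low if a short transcript prevails.

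The share of cells with *S100a6* differed less between the genotypes than its level. At least 1 count was found in 52.5%, 39.0% and 39.0% of cells on the CA-ERBB2 plates and in 42.4%, 23.7% and 20.3% on the Control plates, so that Control plate 1 exceeded CA-ERBB2 plates 2 and 3. Pooled over the plates of a genotype, the gene was found in 77 of 177 cells with CA-ERBB2 (43.5%, with 95% limits of 36.1% and 51.1% by the exact binomial method) and in 51 of 177 cells without it (28.8%, limits 22.3% and 36.1%), and these limits cover counting error only. With every cell thinned to 100000 counts, and the 35 shallower cells dropped, the plate mean was 40.0% in CA-ERBB2 and 32.5% in Control. By plate these shares were 47.5%, 34.5% and 37.9% in CA-ERBB2 and 39.0%, 36.1% and 22.4% in Control. Control plates 1 and 2 thus exceeded CA-ERBB2 plate 2. Where the gene was detected, the median level was 469 CPM in CA-ERBB2 cells and 58.5 CPM in Control cells.

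Cells with a high level set the plate values. A level of 1000 CPM or more was reached by 12, 7 and 7 cells of the CA-ERBB2 plates and by 2, 1 and 1 cells of the Control plates. The 26 CA-ERBB2 cells held 90.0% of all *S100a6* counts of the genotype, and the 4 Control cells held 38.5%. The highest cell reached 19278 CPM in CA-ERBB2 (plate 2, well D10) and 2093 CPM in Control (plate 3).

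The other members differed from each other in how their detection compared between the genotypes. *S100a4* was detected in 18.1% of CA-ERBB2 cells and 6.21% of Control cells. *S100a1* was found in 95 CA-ERBB2 and 93 Control cells, *S100b* in 98 and 95, *S100a13* in 77 and 82, and *S100a16* in 76 and 61. *S100a10* was found in 117 and 105 cells and *S100a11* in 127 and 107 (71.8% and 60.5%), the widest detection in the family. After thinning as for *S100a6*, plate means in CA-ERBB2 and Control were 63.3% and 64.5% for *S100a10* and 69.6% and 70.9% for *S100a11*. They were 51.9% and 57.8% for *S100a1*, 48.4% and 58.4% for *S100b*, and 39.3% and 52.0% for *S100a13*. For *S100a16* (40.4% and 33.0%) and *S100a4* (11.4% and 3.34%) the thinned mean stayed higher in CA-ERBB2. The difference in detection of *S100a13*, CA-ERBB2 minus Control, was -2.82 percentage points, and its sign turned in 4 of 11 alternatives (2.26 points at 100 CPM or more and 6.21 without Control plate 1). In the other direction, it reached -15.8 points with a plate left out, and the thinned mean of *S100a13* was also lower in CA-ERBB2. For *S100a13* the cells at 1000 CPM or more numbered 11 in CA-ERBB2 and 2 in Control.

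Within single cells, *S100a6* was found more often in cells with *S100a1* than in the other cells on every plate of both genotypes, and the share was higher in CA-ERBB2. At 100 CPM or more, *S100a1* was held by 29, 21 and 15 cells of the CA-ERBB2 plates and by 20, 19 and 21 cells of the Control plates. Of these cells, 17, 10 and 9 also held *S100a6* at 100 CPM or more on the CA-ERBB2 plates (58.6%, 47.6% and 60.0%), and 4, 4 and 5 did on the Control plates (20.0%, 21.1% and 23.8%). The shares of the genotypes did not overlap. Among the remaining cells, with *S100a1* under 100 CPM, *S100a6* at that level was found in 2 of 30, 7 of 38 and 9 of 44 cells on the CA-ERBB2 plates and in 4 of 39, 4 of 40 and 1 of 38 on the Control plates, where the shares of the genotypes overlapped.

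**Figure D2:**
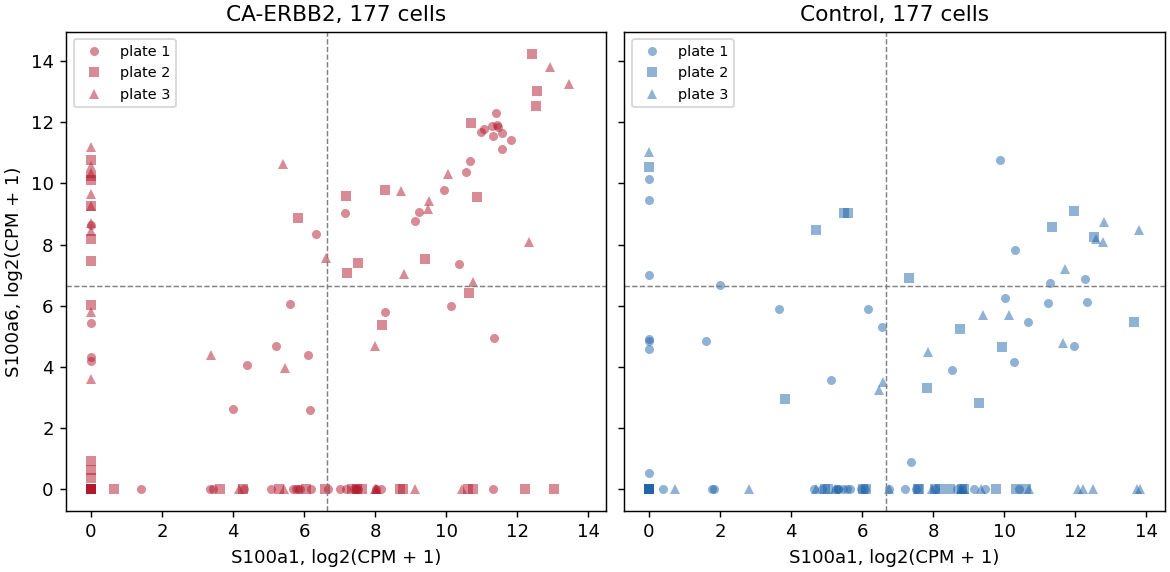
Level of *S100a6* against *S100a1* in each cell, as log2(CPM + 1), for the 177 CA-ERBB2 cells and the 177 Control cells, with a marker shape per plate and dashed lines at 100 CPM. The upper right field, with both genes at 100 CPM or more, holds 36 CA-ERBB2 cells and 13 Control cells.

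The summed counts of these cells gave the same picture for the level. In cells with *S100a1* at 100 CPM or more, *S100a6* stood at 1579, 2386 and 1897 CPM on the CA-ERBB2 plates and at 131, 80.7 and 80.6 CPM on the Control plates. In the other cells it stood at 29.5, 127 and 276 CPM on the CA-ERBB2 plates and at 57.0, 177 and 45.5 CPM on the Control plates. Over single cells with *S100a1* at 100 CPM or more, the median of *S100a6* was 521, 83.7 and 131 CPM against 15.3, 0 and 0 CPM. The sums rest on few cells: the top 5 cells of a plate held 53.1%, 87.7% and 81.7% of its *S100a6* counts in CA-ERBB2. In Control they held 80.4%, 79.7% and 87.2%. Cells with *S100a1* carried 98.2%, 92.2% and 77.4% of the *S100a6* counts of the CA-ERBB2 plates, against 54.8%, 37.7% and 69.3% on the Control plates. Between 50 and 200 CPM of *S100a1*, close to the limit used, lay 41 cells.

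**Figure D3:**
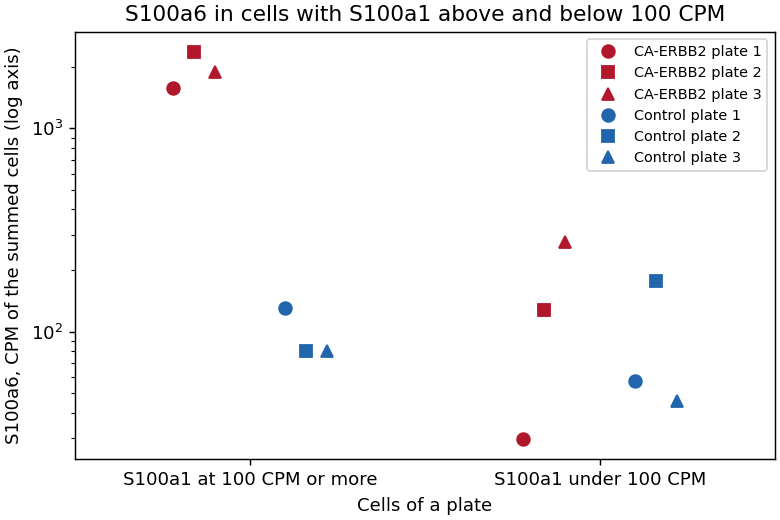
*S100a6* in CPM of the summed cells (log axis) for cells with *S100a1* at 100 CPM or more and for the other cells, 1 point per plate. In the first set the CA-ERBB2 plates lie between 1579 and 2386 and the Control plates between 80.6 and 131, while in the second set the genotypes overlap.

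The same comparison in cells that express *Fgfr3*, the gene whose promoter drives the Cre, used a marker from outside the family and was made after the values above were seen. *Fgfr3* at 100 CPM or more was found in 22, 10 and 6 cells of the CA-ERBB2 plates and in 10, 5 and 12 cells of the Control plates. *S100a6* in their summed counts was 1885, 4024 and 3642 CPM on the CA-ERBB2 plates and 53.6, 138 and 128 CPM on the Control plates. *S100a1* in these cells was 1643, 2779 and 2800 CPM against 2390, 1731 and 3912 CPM, which overlapped. *S100b* was lower on every CA-ERBB2 plate, at 188, 250 and 218 CPM, than on every Control plate, at 565, 319 and 360 CPM. *S100a13* was higher on every CA-ERBB2 plate, at 525, 1345 and 1310 CPM against 92.0, 257 and 184 CPM. These sets are small, and the order of *S100b* was not found with other markers. In cells with *Epcam* at 100 CPM or more, *S100b* was 240, 254 and 111 CPM on the CA-ERBB2 plates and 396, 111 and 364 CPM on the Control plates, and in cells with *S100a1* at that level it was 202, 237 and 413 CPM against 377, 131 and 295 CPM. Both overlapped. *S100a6* in the *Epcam* cells was 1932, 1960 and 2007 CPM against 48.5, 72.7 and 108 CPM, and *S100a13* was 539, 660 and 892 CPM against 61.5, 201 and 165 CPM, without overlap. Of the 26 CA-ERBB2 cells with *S100a6* at 1000 CPM or more, 19 held *Fgfr3*, 18 *Epcam* and 19 *S100a1* at 100 CPM or more. The sets by *Fgfr3*, *Epcam* and *S100a1* thus recount many of the same cells and are not separate comparisons.

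By presence alone, the 3 genes fell together in many cells of both genotypes. At least 1 count of *S100a6*, *S100a1* and *S100b* was found in 46 CA-ERBB2 cells and 39 Control cells, and none of the 3 in 41 and 52 cells. *S100a6* without either marker was found in 14 CA-ERBB2 cells and 5 Control cells. At 100 CPM or more, all 3 were held by 23 CA-ERBB2 and 9 Control cells, while both markers without *S100a6* were held by 10 CA-ERBB2 and 23 Control cells.

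The difference within each cell, log2(CPM + 1) of *S100a6* minus that of *S100a1*, was not scaled to length and had a plate median of -0.36, 0 and 0 in CA-ERBB2 and of -1.83, 0 and 0 in Control. On the 4 plates with a median of 0, between 21 and 31 cells held neither gene. Without scaling to length, *S100a6* exceeded *S100a1* in 16, 17 and 15 cells of the CA-ERBB2 plates and in 11, 4 and 1 cells of the Control plates, without overlap. Per kilobase of exons, it did so in 6, 15 and 12 cells of the CA-ERBB2 plates and in 10, 4 and 1 cells of the Control plates. The genotypes overlapped in that case, so the order of the plates depended on the exon lengths used. Against *S100b* the plate medians were 0, 0 and 0 in CA-ERBB2 and -3.87, 0 and 0 in Control, and per kilobase *S100a6* exceeded *S100b* in 22, 20 and 19 cells against 9, 8 and 5, without overlap. The means over cells, computed after the medians were seen to be uninformative, differed between the genotypes by 1.66 for *S100a1* and by 1.97 for *S100b*.

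The 26 CA-ERBB2 cells with *S100a6* at 1000 CPM or more carried SC and epithelial genes in varying shares by plate. *Fgfr3* was found in 20 of them and in 41 of the other 151 CA-ERBB2 cells, *Sox2* in 18 and 28, *Epcam* in 20 and 56, and *Prox1*, a factor of SCs and developing hair cells, in 17 and 24. The Deiters cell gene *Hes5* was found in 15 and 17 of them, and *Cryab*, a marker of pillar cells, in 20 and 76. Plate 1 weighed most in these counts, since each of these 6 genes was found in all 12 of its high cells. *Fgfr3* and *Epcam* were each found in 4 of 7 high cells on plates 2 and 3, *Sox2* in 4 of 7 and 2 of 7, *Prox1* in 4 of 7 and 1 of 7, and *Hes5* in 3 of 7 and 0 of 7. The mesenchymal *Col1a2* was found in 17 and 117, with a median of 27.2 CPM in the high cells and 801 CPM in the others. By plate, these medians were 19.6 and 3234 CPM on plate 1, 0.346 and 242 CPM on plate 2, and 357 and 363 CPM on plate 3. The contrast in *Col1a2* was thus absent on plate 3, where 5 of 7 high cells had counts of it. The leukocyte gene *Ptprc* and the macrophage gene *C1qa* had counts in 1 of the 26 cells each. Over the marker lists, with the plates pooled, the 5 general SC markers summed to 4073 CPM in the high cells and 373 CPM in the other CA-ERBB2 cells. The 6 mesenchymal markers summed to 229 and 4139 CPM, also pooled and not split by plate. The high cells also had more genes detected, with a median of 9645 against 3241, and the part of this difference in the marker detection was not tested. Of the 26, 1 lay in the wells A12 to D12.

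The 4 Control cells at that level held fewer of these genes. *Epcam*, *Sox2* and *Cryab* had counts in 0 of them, *Fgfr3* and *Prox1* in 2 each and *Hes5* in 1, and none of these reached 100 CPM in any of the 4. *Sox10*, a factor of SCs and glia, had counts in 2, and *Col1a2* in 3. *S100a1* was found in 1 of the 4, the cell in well B7 of Control plate 1, at 944 CPM beside *S100b* at 411 and *S100a13* at 1282 CPM. Another, in well E5 of Control plate 1, held 33637 counts of *S100a8* and 49253 of *S100a9*, which was 99.99% and 99.6% of all counts of these genes in the series, together with *Ptprc* at 2076 CPM. *S100a8* and *S100a9* encode the calprotectin of myeloid cells, and the neutrophil genes *Elane*, *Mpo*, *Ly6g* and *Camp* had 0 counts in that cell. Without it, the log2 fold change of *S100a6* was 3.74.

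Another set of CA-ERBB2 cells consisted of those in which *Dmp1*, *Mmp9*, *Spp1* and *Timp1* all reached 100 CPM. They numbered 3, 14 and 19 on CA-ERBB2 plates 1 to 3, and *Spp1*, which encodes a secreted matrix phosphoprotein, stood at 148843, 206986 and 176707 CPM in them. They held 5.70%, 31.7% and 49.0% of all counts of these plates but 1.67%, 7.98% and 18.0% of the *S100a6* counts. *S100a6* stood at 239, 251 and 299 CPM in these cells and at 850, 1345 and 1313 CPM in the other CA-ERBB2 cells. By detection the order was the opposite: *S100a6* had a count in 23 of the 36 cells (63.9%) and in 54 of the other 141 (38.3%), with a median of 69.2 and 0 CPM, and reached 100 CPM in 17 and 37 cells. Of the 26 cells with *S100a6* at 1000 CPM or more, 3 carried the 4 genes.

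*S100a10* differed from *S100a6* in its share of counts but not in the order of detection. The same cells held 15.0%, 50.5% and 66.2% of its counts, above their share of all counts on each plate, and its level was 413, 886 and 781 CPM in them and 141, 404 and 384 CPM in the other CA-ERBB2 cells. It was detected in 32 of the 36 cells and in 85 of the other 141 (88.9% and 60.3%). *S100a11* was detected in 31 of the 36 cells, but its share of counts (6.41%, 31.9% and 39.1%) was near or below their share of all counts. *S100a4* had 33.8%, 52.8% and 35.7% of its few counts in them. For *S100a1*, *S100a13* and *S100b* the share of counts in these cells was lower than their share of all counts on each plate.

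**Figure D4:**
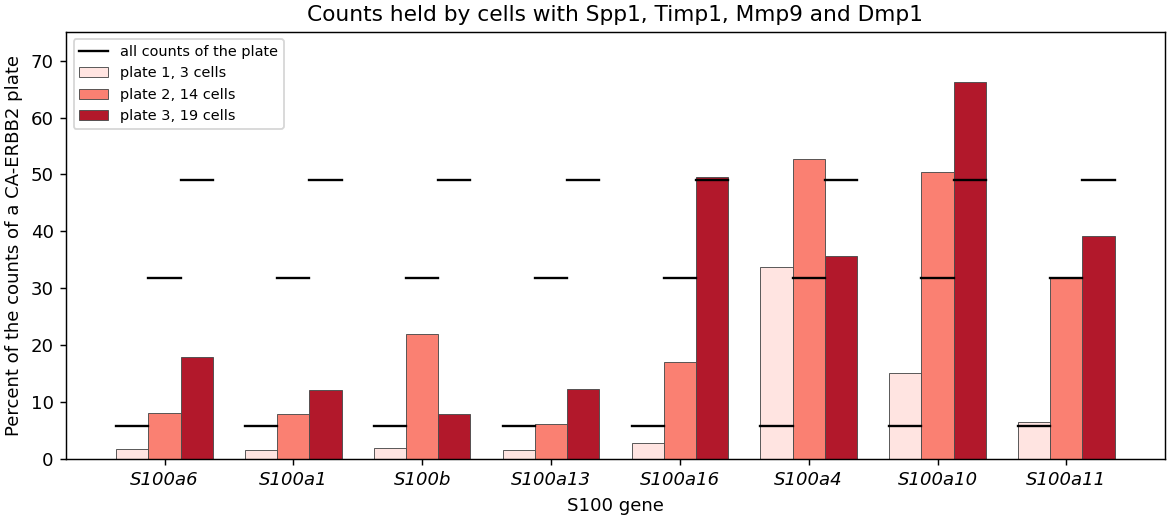
Percent of the counts of each S100 gene on the 3 CA-ERBB2 plates that lay in cells with all of *Dmp1*, *Mmp9*, *Spp1* and *Timp1* at 100 CPM or above, with black lines at the share of all counts that these cells held. *S100a10* lies above the line on each plate, and *S100a6*, *S100a1*, *S100b* and *S100a13* lie below it.

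Across the cells of the CA-ERBB2 plates, *S100a1*, *S100a6*, *S100a13* and *S100a16* went together, with mean Spearman coefficients from 0.42 (*S100a1* and *S100a16*) to 0.58 (*S100a6* and *S100a13*). Spearman correlations were computed within each plate over cells with at least 100000 counts (58 or 59 cells on the CA-ERBB2 plates, and 59, 36 and 49 on the Control plates), and they share depth and many cells without counts, so no p is given. *S100a6* and *S100a13* had coefficients of 0.65, 0.45 and 0.65 on the CA-ERBB2 plates and of 0.27, 0.20 and 0.54 on the Control plates. *S100a6* and *S100a16* had 0.69, 0.35 and 0.67 against 0.24, 0.08 and 0.32. *S100a1* and *S100a13*, which start next to each other, had 0.64, 0.62 and 0.45 against 0.55, 0.40 and 0.74, about the same in both genotypes. *S100a6* and *S100a1* had 0.65, 0.27 and 0.43 against 0.28, 0.31 and 0.47. *S100a13* and *S100a16* had 0.61, 0.49 and 0.48 against 0.18, 0.31 and 0.17. *S100a10* had a mean coefficient of 0.44 with *S100a11* and of 0.10 with *S100a1* on the CA-ERBB2 plates, and the order was the opposite on the Control plates, at 0.22 and 0.34.

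The genes most like *S100a6* by the mean coefficient over the 3 CA-ERBB2 plates, among 11965 genes with a count in at least 20% of the 175 cells used, were *Gm13782* (0.62), *Lfng* (0.60), *Slitrk6* (0.60), *Lgi4* (0.60) and *Fkbp1a* (0.59). *Lfng* encodes a glycosyltransferase that modifies Notch. Their mean coefficients on the Control plates were 0.52, 0.43, 0.47, 0.32 and 0.45. For *S100a1* the leading genes were *Mgst3* (0.71), *Cldn9* (0.68), *Plet1* (0.66), *Uchl1* (0.66) and *Gm13782* (0.65), of which *Cldn9* encodes a claudin of tight junctions. Both lists thus contained *Gm13782*.

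Of the 10 other genes listed with a name in S100, *S100pbp* among them, 4 had enough counts to be tested and 0 passed the test by edgeR. At an unadjusted p under 0.05 by edgeR, 2 were higher and 1 was lower, against 2.77% and 2.39% of all genes tested. *S100a3* and *S100a14*, both between *S100a13* and *S100a6* on chromosome 3, were nearly absent from Control cells. *S100a3* measured 21.4, 16.5 and 15.9 CPM on the CA-ERBB2 plates and 0.349, 0.227 and 0 CPM on the Control plates, with an edgeR adjusted p of 0.774 and a DESeq2 adjusted p of 3.82e-06. It had 8578 counts in 27 CA-ERBB2 cells and 110 counts in 5 Control cells, and 144 of its exon bases are shared with *Gm42674*. *S100a14* measured 38.4, 30.8 and 50.3 CPM against 0.0294, 0 and 3.64 CPM, with an adjusted p of 0.911 by edgeR and of 0.079 by DESeq2. As the list was chosen with earlier results of these cells known, nothing is read from the p-values of *S100a3* and *S100a14*. Of the 26 CA-ERBB2 cells with *S100a6* at 1000 CPM or more, 18 had counts of *S100a3* and 16 of *S100a14*, against 9 and 8 of the other 151. Plate 1 weighed most here too, with both genes found in all 12 of its high cells. On plates 2 and 3, *S100a3* was found in 3 of 7 high cells each and *S100a14* in 2 of 7 each. The part of the higher number of genes detected in the high cells was not tested. *S100g*, a calcium-binding protein of epithelia, was below 1 CPM on every plate. *S100a2*, which was not on the list, had 7215 of its counts on Control plate 3, all in 1 cell. *S100a7l2* had 0 counts, and *S100a5*, *S100a7a*, *S100a8*, *S100a9* and *S100z* did not pass the filter on low counts.

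**Figure D5:**
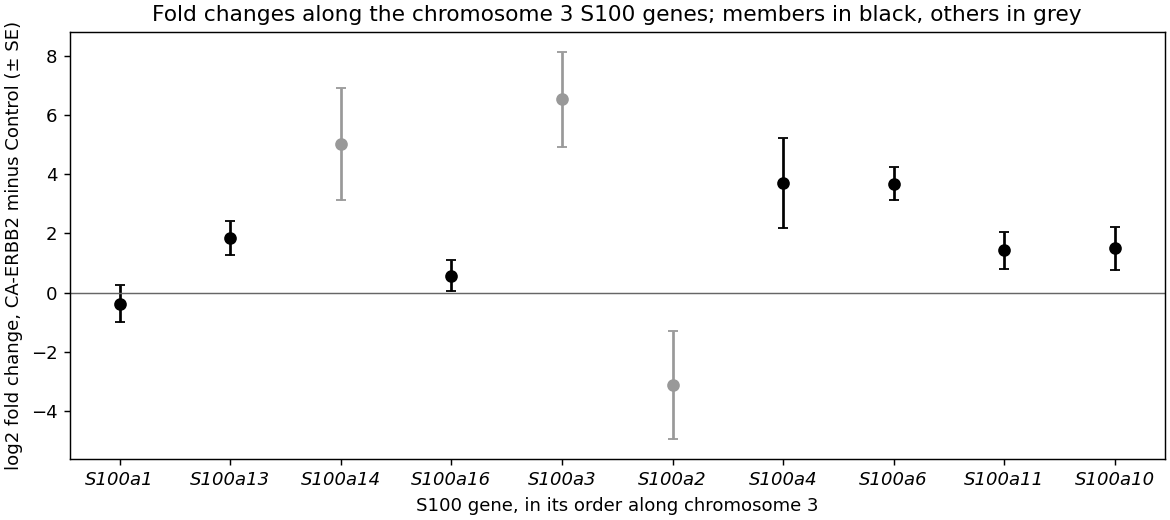
Log2 fold change (CA-ERBB2 minus Control, ± SE from edgeR over 3 plates each) of the S100 genes tested on chromosome 3, in their order along the chromosome. Members are black and other S100 genes grey. *S100a1*, first in order, lies at -0.38 beside its neighbour *S100a13* at 1.85.

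Of 26 partners and receptors of S100 proteins, 26 were tested and 0 passed the test, with 5 higher and 0 lower at an unadjusted p under 0.05. Over all genes tested, 2.77% were higher and 2.39% lower at that limit by edgeR. The same 5 partners had every CA-ERBB2 plate above every Control plate, and 4.2% of all genes tested did. *Anxa1*, a partner of S100A11, measured 102, 819 and 966 CPM on the CA-ERBB2 plates and 57.2, 18.3 and 57.7 CPM on the Control plates (adjusted p = 0.774 by edgeR). *Anxa2*, the partner of S100A10, measured 439, 784 and 1346 CPM against 251, 227 and 395 CPM (adjusted p = 0.911). The others were *Ppfibp1*, which encodes a liprin that binds S100A4, *Fgf1*, the growth factor released with S100A13, and *Ryr1*, a calcium channel bound by S100A1. *Anxa5* and *Anxa6* overlapped between the genotypes, with log2 fold changes of 0.65 (SE 0.56) and -0.98 (SE 0.57). The median log2 fold change was 0.13 over the 26 genes and -0.02 over all genes.

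Other EF-hand genes lay on both sides of 0. Of 25 tested, 0 passed the test by edgeR, and the median log2 fold change was 0.13. At an unadjusted p under 0.05 by edgeR, 0 were higher and 1 was lower, against 2.77% and 2.39% of all genes tested. *Sparc*, a matrix protein with EF-hands, had a log2 fold change of -0.24 (SE 0.48). Of the 12 other markers of Deiters and pillar cells, 0 passed the test, 0 were higher and 1 was lower at an unadjusted p under 0.05, and none separated the genotypes on all plates. Among these, *Cryab* had a log2 fold change of 0.79 (SE 0.52) and *Npy* one of -2.78 (SE 0.95). The 8 Deiters cell markers summed to between 3170 and 4117 CPM on the CA-ERBB2 plates and between 2407 and 4444 CPM on the Control plates, which overlapped. The 4 red blood cell markers summed to between 17.0 and 402 CPM on the CA-ERBB2 plates and between 3457 and 6562 CPM on the Control plates, and their part in the S100 values was not tested.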

How the data were processed

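Libraries of single GFP+ cells were made with SMART-Seq Single PLUS. Per the labels and the methods of the study, reads were mapped by the authors with STAR 2.7.6a on GRCm38 and assigned to genes by featureCounts of Subread 2.0.1, and the authors deposited whole-number counts without normalization. The counts are of reads without molecular identifiers. The median total was 2866362 counts per cell, and intervals and limits cover counting error only. All 354 cells were used. By the methods of the study, each plate held cells of several pooled pups and the cells came from separate FACS sorts. Nothing in the labels ties a plate number to a litter or a sort, so errors and p-values measure the spread between plates.

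Counts were summed per plate and fitted with edgeR 4.0.16 in R 4.3.3 (TMM factors, filterByExpr, quasi-likelihood test). A call required an adjusted p (Benjamini-Hochberg) below 0.05 together with a log2 fold change of more than 1 either way. Cells were scored by CPM of their own total. The members, lists and levels of 100 and 1000 CPM were chosen with earlier results of these data known. The genes named are the members, the other S100 genes, those of each list that passed the test or led it by mean CPM (up to 4), and the 5 most like *S100a6* or *S100a1*. *S100a2*, *Ppfibp1*, *Fgf1*, *Ryr1* and *Npy*, among others, and the markers compared in the cells with high *S100a6*, were named after their values were seen. The edgeR step was tested on simulated data. Alternatives were DESeq2 1.42.0, limma 3.58.1, other scalings, filters and levels, thinning to 100000 counts, and leaving out plates or wells. RT-qPCR and immunostaining were not analysed here.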

Additional observations from a re-analysis of the deposited data

How the results depend on the processing

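The log2 fold change of *S100a6* lay between 3.25 (every cell weighted equally, limma) and 3.97 in 15 alternatives, and between 3.50 and 3.97 with each plate left out. The share of cells with *S100a6* differed by 14.7 percentage points, by 7.44 after thinning, and by 10.2 to 21.5 with each plate left out. The number of genes called was 1, but 285 without a filter on low counts, 235 by DESeq2, 0 in limma with equal cell weights, and 0 to 2 with each plate left out: 0 without Control plate 1 or Control plate 3 and 2 without CA-ERBB2 plate 1. The genotype difference in the median within-cell difference from *S100a1* was 0.49, moved to 2.57 in cells with at least 100000 counts and under 20% mitochondrial counts, and was -0.12 without Control plate 1 (range -0.12 to 0.80 with each plate left out). For *S100b* it was 1.29, and 0 to 1.94. The means over cells kept their direction, at 1.10 to 2.21 for *S100a1* and 1.44 to 2.5 for *S100b*. The sign of the difference in detection turned in 7 of 11 alternatives for *S100b*, 5 for *S100a1*, 4 for *S100a13*, 3 for *S100a10*, 2 for *S100a11* and 1 for *S100a16*, and the cause was not tested. Among cells with *S100a1*, the share with *S100a6* differed by 33.8 percentage points, and by 26.6 with *S100a1* at 10 CPM or more.

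With the plate number as a replicate block, 1 gene was called and the log2 fold change of *S100a6* was 3.65. Plates of the same number correlated at 0.215, 0.0822 and 0.0773 in their deviations from the genotype means, and each plate correlated best with its own number, a hint from the data and not from the design. Depth limits detection on Control plates 2 and 3, where 33 cells had under 100000 counts.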
